A study of Mus musculus with 48 samples.

Results

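The genes described here encode the subunits of the mitochondrial respiratory chain and of ATP synthase, and they were followed in KO mice lacking Tia1, which encodes the RNA-binding protein TIA-1, and in WT mice. They were chosen by name alone, with no measured value: every probe set whose gene symbol begins with Nduf, Uqcr or Atp5, with Cox and a number from 4 to 8, or reads Sdha, Sdhb, Sdhc or Sdhd, with 1 pseudogene left out. This gave 86 of the 17097 genes that the arrays read through a probe set with a single symbol, by way of 146 probe sets, and each gene was read at the probe set with the highest mean over the 48 arrays. The rule took in 32 genes of complex I, 7 complex I assembly factors that carry an Ndufaf name and are not subunits, 4 genes of complex II, 7 of complex III, 19 of complex IV and 17 of ATP synthase (complex V). Of these 86 genes, 46 had 1 probe set, and the 60 further probe sets of the other 40 genes were kept as a second reading. In 5 genes (Cox4i2, Cox7b2, Cox8b, Cox8c and Ndufa4l2) the highest group mean was under 5.44 on the log2 scale, the median of that quantity over all probe sets, and these are called dim here.

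The respiratory chain sits in the inner mitochondrial membrane. Complex I takes electrons from NADH and complex II, which is also the succinate dehydrogenase of the citric acid cycle, takes them from succinate. Complex III passes them on to cytochrome c and complex IV, cytochrome c oxidase, to oxygen. Complexes I, III and IV pump protons, and complex V uses the proton gradient to make ATP. Neurons rely on this supply for firing and transmission, and hepatocytes for gluconeogenesis, urea synthesis and other work that costs ATP. A few subunits of complex IV come in pairs of genes: Cox6a1, Cox7a2 and Cox8a are the widely used forms, and Cox6a2, Cox7a1 and Cox8b are the forms typical of heart and skeletal muscle. The catalytic core of complex IV and several other subunits are encoded by mitochondrial DNA, and these have names outside the rule. The name of Cyc1, a complex III subunit encoded in the nucleus, is outside the rule as well.

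Each mouse gave liver and 3 nervous tissues (spinal cord, midbrain and cerebellum), at an age labelled 3 or 6 months, with 3 KO and 3 WT mice per age, which makes 16 groups of 3 arrays. Both genotypes were on the C57BL6/J background. The KO allele removes exon 4 of Tia1 by recombination in every cell and leaves a shortened mRNA, and the KO mice were bred as homozygotes. The methods name WT mice bought from a commercial breeder, whereas the design text of the series calls them littermates, so a difference between colonies and the effect of the allele cannot be told apart where the methods hold. The mice carry the same numbers at both ages (WT 1 to 3, KO 122970, 122972 and 122973), and each age was taken as a separate set of animals, so that 12 mice gave 4 tissues each. The values are log2 signal intensities, on which a difference of 1 is a 2-fold change, and they allow a gene to be compared between samples but not 1 gene with another. Each value comes from RNA of a whole tissue, in which fewer cells of a type and less RNA per cell cannot be told apart. A gene is called here when its adjusted p is under 0.05, with p adjusted over all 45037 probe sets.

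The Tia1 probe set over exon 4 separated the genotypes in the 3 nervous tissues, where WT arrays lay between 7.49 and 8.41 and KO arrays between 5.14 and 6.61. In liver, where Tia1 was lower, the WT arrays (5.18 to 5.63) and KO arrays (4.56 to 5.26) overlapped. Hepatocyte markers averaged 11.94 to 12.16 in liver and no more than 3.73 elsewhere, and neuron markers averaged 10.75 to 11.47 in nervous tissue and 3.86 to 4.17 in liver. Several 3-month arrays stood apart through skeletal muscle markers. The mean of 11 such markers was near 3 in most arrays, but it was 8.04 in liver of KO mouse 122972 and 5.17 in liver of WT mouse 2, and in spinal cord it was 9.89 in WT mouse 3 and 5.60, 6.38 and 8.06 in the 3 KO mice. At 6 months it was 6.94 in spinal cord of KO mouse 122970 and 4.29 in WT mouse 3. In cerebellum at 3 months, the array of WT mouse 1 had a median over all probe sets of 4.10, lower than in the other cerebellum arrays, where it ran from 4.21 to 4.27.

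The respiratory chain genes were measured with little spread. The median SD within a group was 0.069 over the 86 genes and 0.166 over all probe sets. In liver these medians were 0.071 and 0.218, in spinal cord 0.059 and 0.122, in midbrain 0.048 and 0.115 and in cerebellum 0.085 and 0.133. All 4 tissues shared 1 estimate of the spread per gene, so that for genes that vary more in liver than elsewhere a liver difference was set against too small an error. The adjusted p with liver fitted by itself is therefore given with the liver calls.

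In the nervous system, the loss of TIA-1 left almost all of these genes within a narrow range of WT. Of the 516 gene and group differences between KO and WT mice in spinal cord, cerebellum and midbrain, 489 (94.8%) were smaller than 0.2 in size on the log2 scale, and 1 was called. The share of all probe sets under 0.2 was not computed, so this range is not shown to be particular to these genes. Their median SD within a group was also smaller, at 0.069 against 0.166 over all probe sets. In spinal cord no gene was called at either age, where 0.311% of all probe sets were called at 3 months and 0.162% at 6 months. The median difference over the 86 genes was -0.006 at 3 months, equal to that of all probe sets to this precision, and 0.02 at 6 months. At 6 months 61 of the 86 were positive, and the median over all probe sets was 0.00. An unadjusted p under 0.05 was found for 1 and 0 genes, where 5.21% and 3.79% of all probe sets had one. The median at 3 months had no settled sign, being 0.011 without WT 3. In midbrain no gene was called either, against 0.242% of probe sets at 3 months and 0.142% at 6 months, with 3 and 0 genes at an unadjusted p under 0.05, where 6.53% and 4.61% of probe sets had one, and medians of 0.00 and 0.01. The interval of the difference lay within 0.5 of 0 for 82 of the 86 genes in each of these comparisons, and the genes left over were among Cox6a2, Cox7a1, Cox8b, Cox6b2 and Cox7b2.

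Cerebellum held the 1 nervous call. Cox7a2l, counted here with complex IV, measured 10.11, 9.95 and 9.89 in WT cerebellum at 6 months and 9.52, 9.70 and 9.65 in KO cerebellum. Every KO value lay under every WT value. The difference was -0.36 ± 0.069 (SE), a 1.28-fold lower level, with an adjusted p of 0.00697, beside 0.182% of probe sets called in this tissue at 6 months. The other 2 probe sets of Cox7a2l differed by -0.21 and -0.12 and were not called, and with cerebellum fitted by itself the adjusted p rose to 0.273. The median difference over the 86 genes at 6 months was -0.036, against 0.00 over all probe sets, and 65 were negative. There were 56 negative without WT 2 and 70 with quantile normalization within cerebellum. An unadjusted p under 0.05 was found for 3 genes, where 4.97% of all probe sets had one. At 3 months none of the 86 genes was called in cerebellum, where 0.548% of all probe sets were. However, 20 genes had an unadjusted p under 0.05, which 7.95% of all probe sets had. The median difference over the 86 genes was -0.04, against 0.02 over all probe sets. Without the WT cerebellum array with the low median (WT 1) the median of the 86 genes was -0.044, with 59 genes negative, against 53 negative with it. It was -0.016 (45 negative) without WT 2 and -0.021 (47 negative) without KO 122973.

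**Figure D1:**
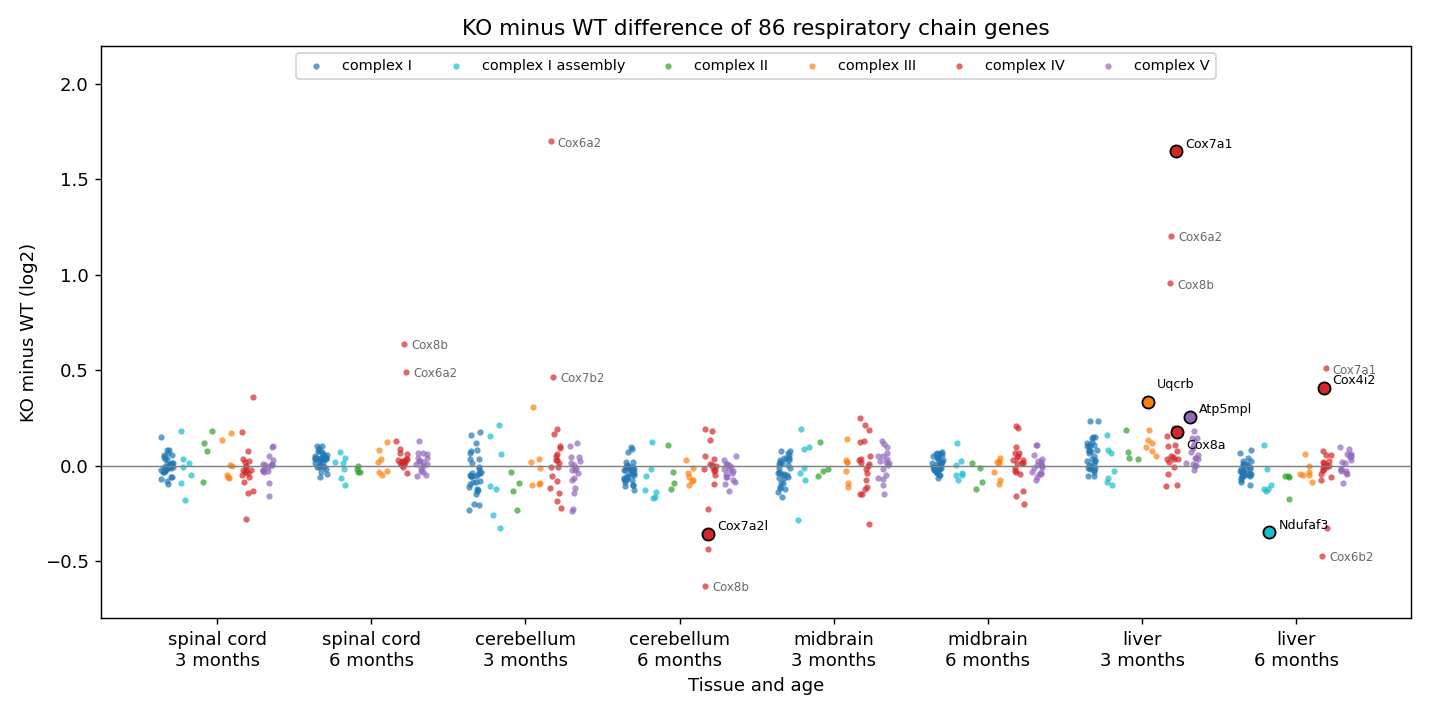
Difference between KO and WT mice on the log2 scale (vertical axis) for each of the 86 respiratory chain genes, in each tissue and at each age (horizontal axis). Each point is 1 gene, coloured by complex, and the large outlined points are the genes called. The points gather near 0 in the 3 nervous tissues, where 1 of 516 differences was called, and Cox7a1 in liver at 3 months lies highest among the called genes, at 1.65.

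The genes of complex II, which chain and citric acid cycle share, show how small these values were. In the nervous tissues, the differences between KO and WT mice ran from -0.04 to 0.12 for Sdha and from -0.13 to -0.003 for Sdhb, which carry the flavin and the iron-sulphur clusters, and from -0.12 to 0.08 for Sdhc, which anchors the complex in the membrane. The other anchor, Sdhd, was read through a weak probe set and ran from -0.23 to 0.18. Tia1 itself lies on chromosome 6, and 4 of the 86 genes lie on that chromosome (Ndufa4, Ndufa5, Ndufa9 and Ndufb2). Differences between KO and WT mice in these 4 ran from -0.14 to 0.15 in the 4 tissues and none was called, the lowest adjusted p being 0.216.

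Liver differed from this in a few genes. At 3 months 4 genes were higher in KO liver (Cox7a1, Uqcrb, Atp5mpl and Cox8a) and none was lower, which is 4.65% of the 86, near the 4.92% of all probe sets called higher. The share of all probe sets called lower was 4.53%. At 6 months 1 gene was higher and 1 lower (Cox4i2 and Ndufaf3), where 5.68% of all probe sets were called higher and 5.81% lower. The interval of the difference lay within 0.5 of 0 for 81 of the 86 genes at each age.

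Cox7a1, the heart and muscle form of subunit VIIa of cytochrome c oxidase, had by far the highest value among these calls. It measured 4.10, 4.44 and 4.25 in WT liver at 3 months, a mean of 4.26 ± 0.17 (SD, n = 3), and 5.74, 6.46 and 5.54 in KO liver, a mean of 5.91 ± 0.49 (SD, n = 3). All KO arrays lay above all WT arrays. The difference was 1.65 ± 0.233 (SE), with a 95% interval from 1.18 to 2.12, a 3.13-fold higher level in KO liver with an adjusted p of 5.45e-06. With liver fitted by itself the adjusted p was 0.0182. At 6 months the gene measured 4.14, 4.67 and 4.43 in WT liver and 4.53, 5.30 and 4.95 in KO liver, so that the genotypes overlapped, and the difference of 0.51 was not called (adjusted p = 0.159). In the 3 nervous tissues its differences between KO and WT mice ran from -0.31 to 0.19 and none was called.

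Skeletal muscle and adipocyte markers moved with Cox7a1 in part of these livers. The mean of the 11 muscle markers in liver at 3 months was 3.09, 5.17 and 3.14 in WT mice 1 to 3 and 3.09, 8.04 and 3.01 in KO mice 122970, 122972 and 122973. The highest Cox7a1 value in each genotype (4.44 and 6.46) was on the array with the highest muscle marker mean. In the 2 KO arrays whose muscle marker mean was no higher than in WT mouse 1, Cox7a1 measured 5.74 and 5.54, above all WT livers. Without the 2 liver arrays with raised muscle markers, KO 122972 and WT 2, the difference was 1.46 and the gene was still called (adjusted p = 0.0004). The mean of the 5 measured adipocyte markers, of 8 named, was 4.08, 4.06 and 4.16 in WT liver and 4.15, 5.27 and 5.31 in KO liver, and one of them, Adipoq, a hormone made by fat cells, measured 3.28, 7.01 and 6.28 in the 3 KO livers and 3.08 to 3.91 in the WT livers. Fabp4, a fatty acid carrier of fat cells, measured 7.80, 7.81 and 7.83 in WT livers and 8.32, 9.10 and 8.83 in KO livers. Ucp1, which marks brown fat, measured 3.25, 3.63 and 3.30 in WT livers and 3.50, 4.03 and 4.56 in KO livers. KO mouse 122970, with a Cox7a1 value of 5.74, had a muscle marker mean no higher than any WT liver at 3 months. Its adipocyte mean, Adipoq and Ucp1 lay within the range of those WT livers, and its Fabp4 (8.32) lay above all of them. The part of fat or muscle cells in these values was not tested.

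The other 2 muscle forms followed the array with muscle markers and were not called. Cox6a2 measured 4.28, 4.64 and 4.0 in WT liver at 3 months and 4.84, 7.39 and 4.31 in KO liver, and Cox8b, which is dim, 3.35, 3.90 and 3.29 in WT liver and 3.49, 6.07 and 3.85 in KO liver. KO mouse 122972 stood alone in both genes. The differences of 1.20 (adjusted p = 0.247) and 0.96 (adjusted p = 0.332) rest on that mouse.

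**Figure D2:**
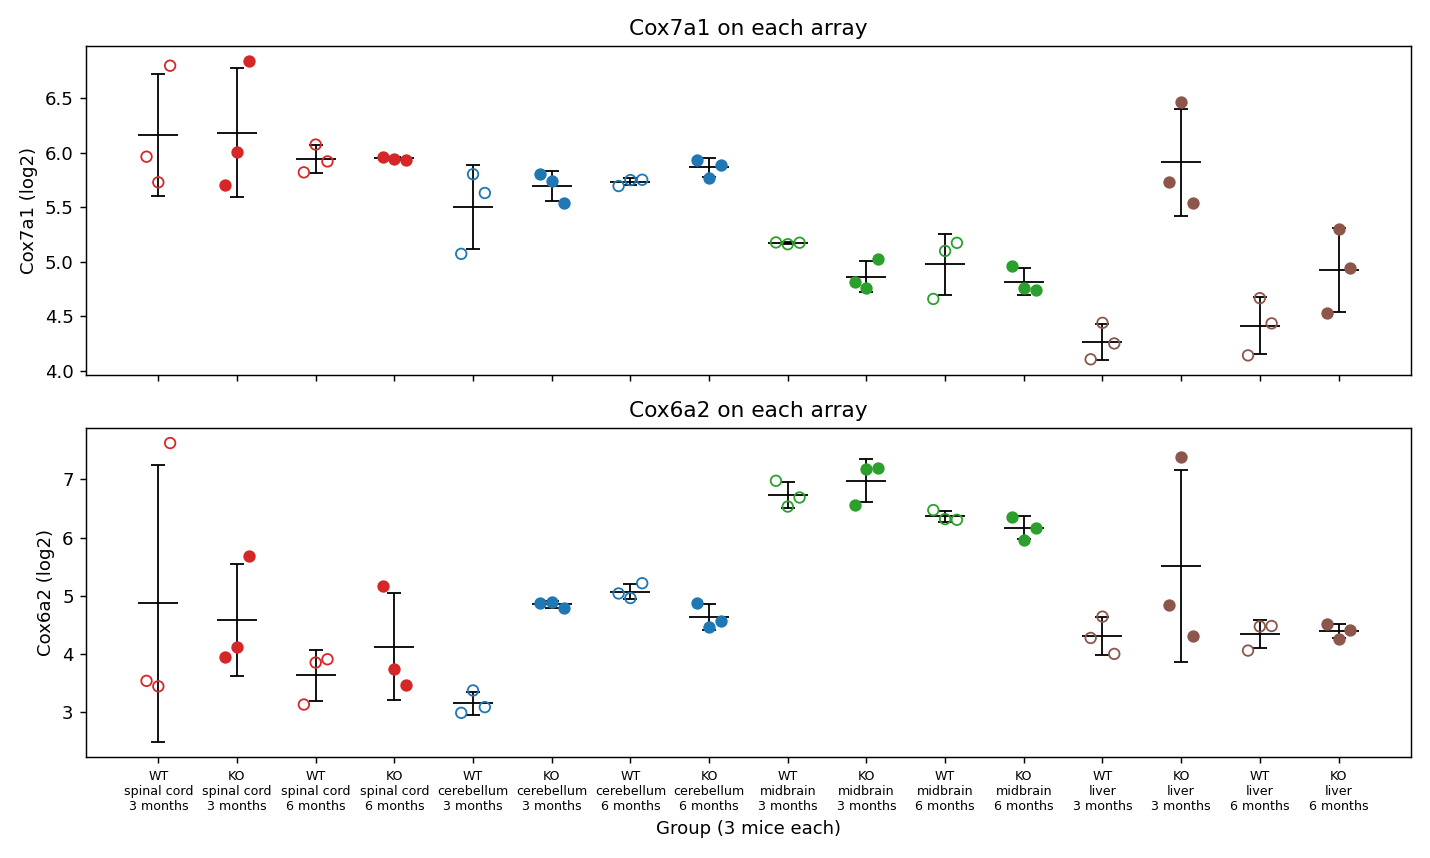
Log2 signal of Cox7a1 and Cox6a2 (vertical axis) in each array of each group (horizontal axis), with 1 point per mouse (open for WT, filled for KO), a line at the group mean and error bars of 1 SD (n = 3). Cox7a1 in liver at 3 months lies between 4.10 and 4.44 in WT mice and between 5.54 and 6.46 in KO mice, and Cox6a2 in cerebellum lies near 3 in the 3 WT mice at 3 months and between 4.46 and 5.22 in the other cerebellum groups.

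The remaining 3 calls at 3 months were small. Uqcrb, a subunit of complex III that lies close to the ubiquinone binding site, measured 9.89, 9.95 and 9.87 in WT liver and 10.20, 10.28 and 10.22 in KO liver, with no overlap. It was 1.26-fold higher (difference 0.33 ± 0.0836, SE, adjusted p = 0.00833), but the adjusted p was 0.202 with liver fitted by itself and 0.0539 without KO mouse 122972. Atp5mpl, a small subunit of ATP synthase, measured 10.17, 10.40 and 10.36 in WT liver and 10.34, 10.67 and 10.69 in KO liver, so that the lowest KO array lay below 2 WT arrays. Its difference was 0.25 (adjusted p = 0.0356). Cox8a, the widely used form of subunit VIII, measured 10.70, 10.81 and 10.71 in WT liver and 10.83, 11.04 and 10.86 in KO liver, a difference of 0.17 (adjusted p = 0.0458) without overlap, and the other probe set of the gene also gave 0.17 (adjusted p = 0.0411). Neither Atp5mpl nor Cox8a was called with liver fitted by itself (adjusted p = 0.533 and 0.597) or without KO 122972 and WT 2 (adjusted p = 0.0992 and 0.169).

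The 86 genes as a whole lay slightly higher in KO liver at 3 months. Their median difference was 0.07, against 0.00 for all probe sets, and 67 of 86 were above 0. All 7 genes of complex III were positive, with a median of 0.12, as were all 4 of complex II, 23 of 32 in complex I, 15 of 19 in complex IV and 15 of 17 in complex V. The mean over the 86 genes was 10.02, 10.06 and 10.03 in the 3 WT livers and 10.12, 10.22 and 10.08 in the KO livers, highest in the mouse with muscle markers. Without KO 122972 and WT 2 the median difference was 0.057, with 59 genes positive, and without KO 122972 alone it was 0.038, with 61 positive. With quantile normalization within liver it was 0.044, with 60 positive. At 6 months the median was -0.02, with 55 of 86 genes negative (-0.001, with 44 negative, without WT 1), and the array means overlapped (10.07, 10.08 and 10.01 in WT, 10.03, 10.03 and 10.04 in KO). Among the other probe sets of these genes, 6 were called higher and 1 lower in KO liver at 3 months and 1 higher and 3 lower at 6 months. None of the 60 was called in any nervous tissue.

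At 6 months, Ndufaf3, a complex I assembly factor, measured 8.49, 8.63 and 8.43 in WT liver and 8.08, 8.13 and 8.29 in KO liver. Every KO value lay below every WT value, and the gene was 1.27-fold lower (-0.35 ± 0.074, SE, adjusted p = 0.00131), a call lost with liver fitted by itself (adjusted p = 0.187). Cox4i2, the form of subunit IV known from lung and dim in all tissues here, measured 3.08, 3.11 and 2.99 in WT liver and 3.71, 3.35 and 3.34 in KO liver. The difference was 0.41 (adjusted p = 0.0123, and 0.248 with liver fitted by itself). The values did not overlap but are close to the low end of the arrays.

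The differences between KO and WT mice were next compared between ages. In liver 74 of 86 genes had a smaller or more negative difference at 6 months than at 3 months, with a median change of -0.084 (71 genes, median -0.075, without KO 122972 and WT 2). Only Cox7a1 was called, by -1.14 ± 0.33 (SE, adjusted p = 0.028), where 7.14% of all probe sets were called in either direction, and without the 2 liver arrays with muscle markers the change was -0.95 (adjusted p = 0.089). In spinal cord, cerebellum and midbrain none of the 86 genes was called, and 0.0533%, 0.0577% and 0.0444% of all probe sets were.

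Cox6a2, the heart and muscle form of subunit VIa, gave a second pattern, in cerebellum. At 3 months it measured 2.99, 3.38 and 3.09 in WT mice, a mean of 3.15 ± 0.20 (SD, n = 3), and 4.88, 4.90 and 4.79 in KO mice, a mean of 4.85 ± 0.06 (SD, n = 3). At 6 months it measured 5.04, 4.96 and 5.22 in WT mice and 4.89, 4.46 and 4.57 in KO mice. The WT group at 3 months was thus low and the other 3 groups lay together. In the fit over all tissues this was not called, with a difference between KO and WT mice of 1.70 at 3 months (95% interval from 0.43 to 2.97, adjusted p = 0.335), a WT age difference of 1.92 (adjusted p = 0.145) and a change of the KO difference with age of -2.14 (adjusted p = 0.862). With cerebellum fitted by itself, where the gene has little spread, all 3 were called (adjusted p = 9.91e-06, 6.94e-06 and 0.000108). The 3 comparisons share the WT group at 3 months. The muscle marker mean lay between 2.93 and 3.12 in the cerebellum arrays.

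In spinal cord the muscle forms marked single arrays. At 3 months Cox6a2 measured 3.54, 3.45 and 7.63 in WT mice and 3.95, 4.13 and 5.69 in KO mice, and Cox8b 4.58, 4.10 and 6.93 in WT mice and 4.48, 4.27 and 7.40 in KO mice. WT mouse 3 and KO mouse 122973, the 2 spinal cords with the highest muscle marker means (9.89 and 8.06), had the highest values of both genes, and Cox7a1 was also highest there (6.80 and 6.84, against 5.70 to 6.01 in the other 4). Fat cell markers marked the same arrays. The adipocyte mean was 5.49 in WT 3 and 7.0 in KO 122973, against 3.36 to 3.56 in the other 4, and Ucp1 measured 6.06 and 7.86, against 2.87 to 3.23. KO mice 122970 and 122972, with muscle marker means of 5.60 and 6.38 and adipocyte means of 3.56 and 3.51, had Cox8b values of 4.48 and 4.27, no higher than the 4.58 of WT 1. The part of each cell type in these values was not tested. None of these differences between KO and WT mice was called. The paired forms Cox6a1, Cox7a2 and Cox8a showed no such arrays, and in WT spinal cord Cox6a1 lay between 12.78 and 12.90, Cox7a2 between 11.65 and 11.76 and Cox8a between 11.09 and 11.27.

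**Figure D3:**
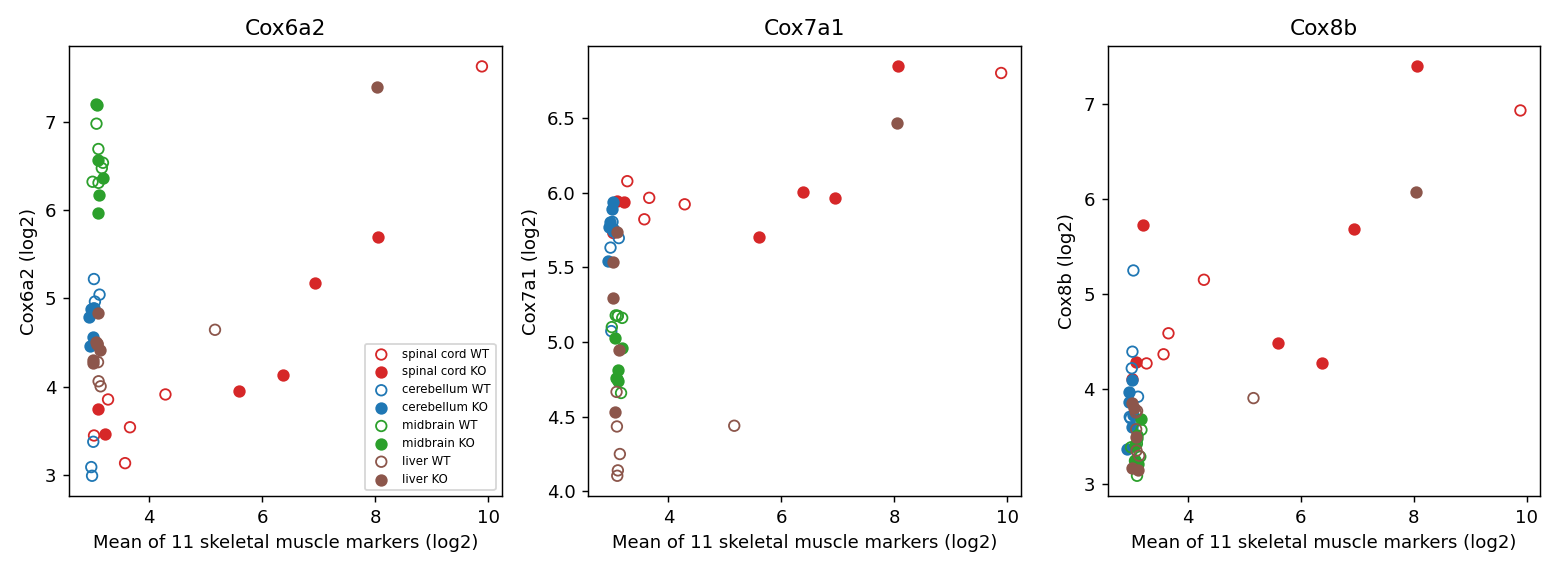
Log2 signal of Cox6a2, Cox7a1 and Cox8b, the muscle forms of complex IV subunits (vertical axis), against the mean of 11 skeletal muscle markers (horizontal axis), 1 point per array (open for WT, filled for KO). The arrays with muscle marker means of 8.04 (liver) and 9.89 (spinal cord) had Cox6a2 values of 7.39 and 7.63. The spinal cord array with a mean of 8.06 had 5.69, and WT midbrain arrays, with low muscle markers, had Cox6a2 values from 6.31 to 6.98.

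The proximal promoters of these genes differ in how many CpG dinucleotides they hold. RefSeq sequence of the 250 bases before the first listed start (build GRCm38.p6) was at hand for 70 of the 86 genes and for 27025 genes in all. The median was 15 CpG in the 70 and 6 in all genes. Cox8b, with 1, and Cox7a1, with 4, stood lowest and joint second lowest of the 70, whereas Cox7a2 held 14 and Cox8a 11. The bases read for Cox7a2 lie inside its annotated gene (chr9:79755241-79771422). More than 1 start was listed for 4163 genes, and CpG counts before other starts were not read. The 4 sequences are shown because the calls in liver and the muscle-bearing arrays turn on these pairs. Cox7a1 lies at chr7:30183921-30184170 on the plus strand, Cox7a2 at chr9:79759854-79760103, Cox8a at chr19:7217617-7217866 and Cox8b at chr7:140900447-140900696 on the minus strand, each written 5′ to 3′ along the strand of its gene, with CG in capitals.
Cox7a1: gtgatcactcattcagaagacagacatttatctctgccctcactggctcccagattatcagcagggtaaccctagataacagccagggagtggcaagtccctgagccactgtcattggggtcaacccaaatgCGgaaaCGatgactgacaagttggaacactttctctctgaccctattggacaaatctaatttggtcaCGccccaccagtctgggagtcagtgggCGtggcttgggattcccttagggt
Cox7a2: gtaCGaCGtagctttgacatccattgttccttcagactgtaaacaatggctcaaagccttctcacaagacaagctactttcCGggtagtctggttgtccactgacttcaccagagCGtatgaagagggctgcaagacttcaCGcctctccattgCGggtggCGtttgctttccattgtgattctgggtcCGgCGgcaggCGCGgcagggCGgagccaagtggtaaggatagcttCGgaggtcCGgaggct
Cox8a: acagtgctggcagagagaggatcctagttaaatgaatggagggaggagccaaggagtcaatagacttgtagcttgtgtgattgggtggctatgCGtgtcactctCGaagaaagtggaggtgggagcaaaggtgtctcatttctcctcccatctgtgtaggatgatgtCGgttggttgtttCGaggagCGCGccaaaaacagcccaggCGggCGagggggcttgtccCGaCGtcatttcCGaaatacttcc
Cox8b: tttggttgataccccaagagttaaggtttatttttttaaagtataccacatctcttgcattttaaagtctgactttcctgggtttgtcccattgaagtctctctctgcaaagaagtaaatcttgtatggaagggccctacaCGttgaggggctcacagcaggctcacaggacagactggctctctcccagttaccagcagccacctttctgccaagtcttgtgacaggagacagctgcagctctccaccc

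The 4 promoters held no match to the motifs searched, on either strand, among these letters. The motifs were GCGCANGCG for NRF1 and CCGGAAG for GABPA and other ETS factors, which are known regulators of many respiratory chain genes, AAGATGGCG for YY1 and TATAAA for a TATA box. The NRF1 motif was in 13 of the 70 promoters (18.6%) and in 5.33% of all promoters, and the ETS motif in 11 (15.7%) and 7.05%. The YY1 motif was in 0 of the 70 and in 0.607% of all, and TATAAA in 7 (10%) and 13%. Either NRF1 or ETS letters were in 20 promoters and both in 4. A pair of those with both are shown, since they belong to a subunit that differed little between liver and nervous tissue (Cox6a1, by -0.21) and to one that differed more (Sdhd, by 1.13). Cox6a1 lies at chr5:115348959-115349208 and Sdhd at chr9:50603850-50604099, both on the minus strand and written along it, with the motif matches in capitals. In Cox6a1 the first capital run holds 2 overlapping NRF1 matches.
Cox6a1: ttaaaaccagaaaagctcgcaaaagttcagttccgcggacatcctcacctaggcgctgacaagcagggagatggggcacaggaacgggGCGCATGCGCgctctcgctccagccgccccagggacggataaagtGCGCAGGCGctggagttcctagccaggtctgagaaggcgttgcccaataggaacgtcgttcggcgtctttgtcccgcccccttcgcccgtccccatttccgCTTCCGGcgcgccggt
Sdhd: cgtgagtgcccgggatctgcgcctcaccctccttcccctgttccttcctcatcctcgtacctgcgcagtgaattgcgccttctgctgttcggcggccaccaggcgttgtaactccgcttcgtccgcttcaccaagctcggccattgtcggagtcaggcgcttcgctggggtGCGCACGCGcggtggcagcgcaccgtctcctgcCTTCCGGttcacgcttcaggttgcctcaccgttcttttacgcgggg

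With age, few of these genes changed in WT mice. In cerebellum 4 genes were lower and 1 higher at 6 than at 3 months, where 0.395% of all probe sets were called lower and 0.735% higher. Atp5l and Atp5j2, subunits of the membrane part of ATP synthase, measured 11.70, 11.66 and 11.47 and 11.71, 11.75 and 11.76 at 3 months, and 11.23, 11.33 and 11.35 and 11.41, 11.45 and 11.50 at 6 months. Their differences were -0.30 (adjusted p = 0.0108) and -0.29 (adjusted p = 0.00982), and the ages did not overlap. The complex I accessory subunits Ndufb5 (-0.25, adjusted p = 0.0234) and Ndufc1 (-0.31, adjusted p = 0.0437) were lower too, and Ndufb10 was higher (0.30, adjusted p = 0.0459). In KO cerebellum, Atp5l measured 11.45, 11.36 and 11.33 at 3 months and 11.24, 11.38 and 11.32 at 6 months. The WT cerebellum array with the low median belongs to the 3-month group, and with cerebellum fitted by itself none of the 5 was called (adjusted p from 0.0971 to 0.172). In liver, Ndufaf5, a complex I assembly factor, measured 7.10, 7.04 and 6.99 at 3 months and 7.0, 6.73 and 6.71 at 6 months and was lower by -0.23 (adjusted p = 0.0458, and 0.499 with liver fitted by itself), where 4.66% of all probe sets were lower and 6.09% higher. The ages overlapped, and the gene was called in 1 of 6 fits that left out 1 mouse (adjusted p up to 0.216). No gene was called in spinal cord or midbrain, against 0.242% and 0.258% of probe sets in either direction.

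The tissues differed far more than the genotypes did. Liver was set against the mean of the 3 nervous tissues in WT mice, and 35 of the 86 genes were higher and 31 lower in liver, where 47.4% of all probe sets were higher and 35.4% lower. The median over all probe sets was 0.12 above 0 in this comparison, and that over the 86 genes was 0.01. The complexes did not go the same way. Complex II was higher in 3 of 4 genes and complex III in 6 of 7, with medians of 0.78 and 0.60. Complex IV was lower in 11 of 19 and higher in 2, with a median of -0.21, and complex I was evenly divided, with 13 higher and 13 lower of 32. ATP synthase had 7 higher and 4 lower of 17, and the assembly factors 4 higher and 3 lower of 7. In KO mice the same comparison gave 41 higher and 25 lower. All 66 genes called in WT mice kept their sign in KO mice and 60 were called there in the same direction.

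**Figure D4:**
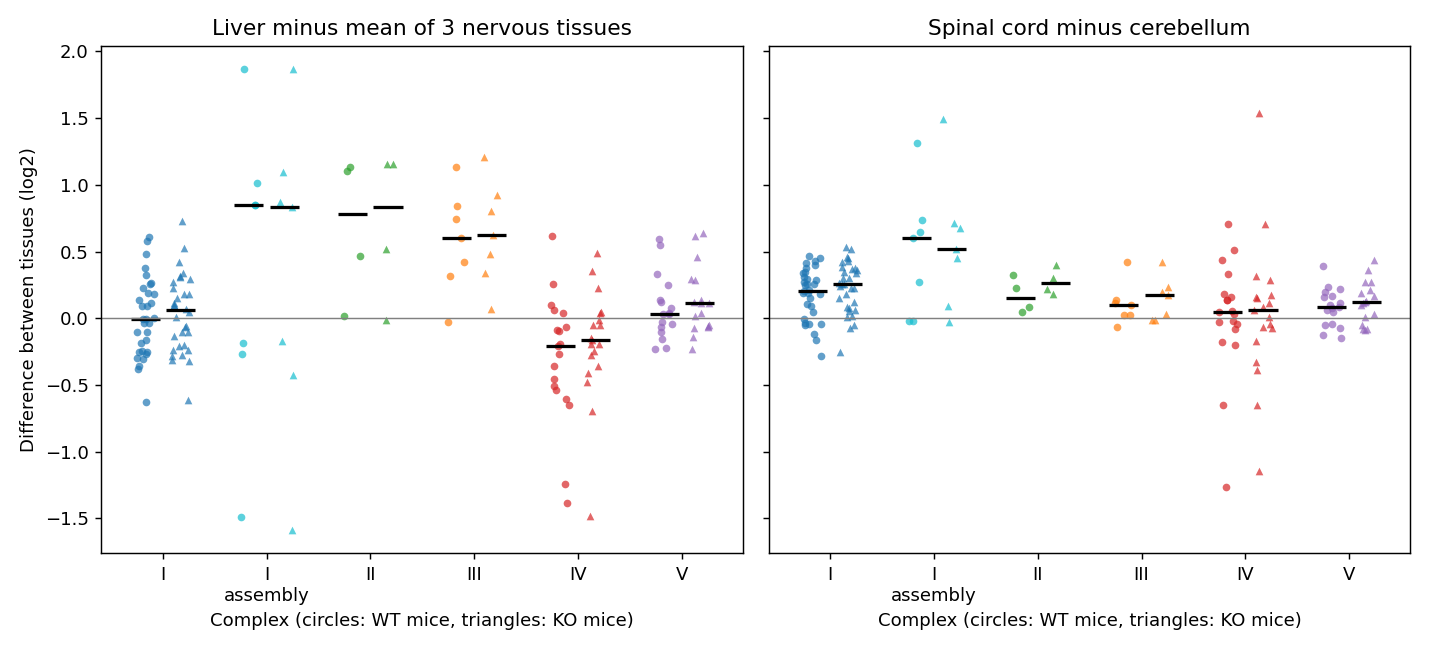
Difference on the log2 scale (vertical axis) between liver and the nervous tissues and between spinal cord and cerebellum for each of the 86 genes, grouped by complex (horizontal axis). Each point is 1 gene, as a circle in WT and a triangle in KO mice, and the lines are medians. In WT liver against nervous tissue the complex II and III genes lie mostly above 0, with medians of 0.78 and 0.60, and the complex IV genes mostly below 0, with a median of -0.21.

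In complex II the 2 membrane anchors were higher in liver, and the probe set read for the flavoprotein was not called. Sdhc lay between 9.74 and 9.95 in WT liver and between 8.54 and 8.95 in the nervous tissues, a difference of 1.10 (adjusted p = 1.38e-24). Sdhd lay between 5.12 and 5.52 in liver and between 3.96 and 4.54 in nervous tissue, a difference of 1.13. Neither gene overlapped between liver and nervous arrays. Sdhb was higher by 0.47, and Sdha differed by 0.02 (adjusted p = 0.634). Of the 3 further Sdha probe sets, 1 was called (0.19, adjusted p = 0.0259), which is weak, with a mean of 2.61 over the 48 arrays. In complex III, Uqcrq, a small subunit, lay between 11.41 and 11.58 in liver and between 10.14 and 10.57 in nervous tissue (1.13), Uqcrb was higher by 0.74, and Uqcrc2, a core subunit, differed by -0.03 (adjusted p = 0.529).

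The assembly factors spanned the widest range. Ndufaf6 lay between 8.26 and 8.81 in WT liver and between 5.94 and 7.02 in nervous tissue and was 3.65-fold higher in liver (1.87, adjusted p = 1.58e-28), and Ndufaf4 was higher by 1.01 and Ndufaf1 by 0.85. Ndufaf5, which modifies a complex I subunit, went the other way. It lay between 6.71 and 7.10 in liver and between 7.80 and 8.82 in nervous tissue (-1.49, adjusted p = 2.48e-28). Neither Ndufaf6 nor Ndufaf5 overlapped between liver and nervous tissue. In complex I the lowest value was that of Ndufa12, at -0.63, but another, weak probe set of this gene was called the opposite way.

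The paired forms in complex IV were not alike. Cox4i1, the main form of subunit IV, was lower in liver by -0.51 (11.66 to 11.81 against 12.02 to 12.34), Cox8a by -0.45 and Cox6a1 by -0.21. Cox7a2 differed by 0.07 (adjusted p = 0.118) and Cox7a2l by -0.06 (adjusted p = 0.128), though 1 of its other 2 probe sets was called lower in liver (-0.15, adjusted p = 0.000654). Cox7a1 was lower in liver by -1.24, with values between 4.10 and 4.67 in WT liver and between 4.66 and 6.80 in nervous tissue, and Cox6b2, a form known from testis, by -1.39. In KO mice the Cox7a1 difference was -0.14 (adjusted p = 0.316). The 3 genes for the c subunit of ATP synthase, which encode the same mature protein, differed as well. Atp5g2 was higher in liver by 0.60 (10.28 to 10.42 against 9.58 to 9.91), Atp5g1 by 0.33, though its probe sets disagreed, and Atp5g3 differed by -0.06 (adjusted p = 0.21).

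Second probe sets mostly gave the same direction. Of the 30 further probe sets called together with the one used for their gene in liver against nervous tissue, 25 had the same direction and 5 the opposite, those of Ndufs4, Ndufa12, Atp5g1, Ndufb7 and Ndufb8. Such probe sets can read other parts or forms of the transcript.

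Between the nervous tissues, spinal cord and cerebellum differed most. In WT mice 43 genes were higher and 9 lower in spinal cord than in cerebellum, where 26.5% of all probe sets were higher and 25.9% lower, and the median over the 86 genes was 0.14 against -0.02 over all probe sets. Of these 52 genes, all kept their sign in KO mice and 45 were called in the same direction. Complex I had 21 higher and 3 lower of 32. Of the further probe sets called in this comparison together with the one used, 6 of 28 went the opposite way. Spinal cord against midbrain gave 18 higher and 4 lower, with 14.6% and 15.5% of all probe sets, and midbrain against cerebellum 35 higher and 14 lower, with 24.6% and 22.6%.

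Ndufaf2, an assembly factor of complex I, was graded over the 3 regions. It lay between 6.37 and 6.80 in WT cerebellum, between 7.15 and 7.34 in midbrain and between 7.69 and 8.20 in spinal cord, with no overlap, and spinal cord exceeded cerebellum by 1.31 (adjusted p = 1.06e-18) and midbrain by 0.65 (adjusted p = 1.66e-09). Ndufaf5 and Ndufaf6 were lower in cerebellum than in both other regions, by 0.74 and 0.65 against spinal cord and by 0.68 and 0.57 against midbrain, while spinal cord and midbrain differed by 0.06 (adjusted p = 0.478) and 0.08 (adjusted p = 0.427). Cox7a2l lay between 9.73 and 10.11 in cerebellum and between 10.35 and 10.54 in spinal cord (0.51), and all 3 of its probe sets were called.

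Cerebellum had the higher values of Cox6b2 and Cox7b2. Cox6b2 lay between 4.63 and 5.97 there and between 3.77 and 4.33 in spinal cord, a difference of -1.27 (adjusted p = 1.21e-08), and the dim gene Cox7b2 differed by -0.65. Midbrain stood out in Cox6a2, with WT values from 6.31 to 6.98, against 2.99 to 5.22 in cerebellum. Midbrain exceeded cerebellum by 2.44 (adjusted p = 1.29e-05), and spinal cord was lower than midbrain by -2.30, or -2.99 without the 3 arrays with the highest muscle marker means. Midbrain Cox6a2 overlapped between genotypes at 3 months, where WT mice measured 6.98, 6.53 and 6.69 and KO mice 6.56, 7.19 and 7.20. Cox8b was higher in spinal cord than in midbrain by 1.57 (1.14 without those 3 arrays) and Cox7a1 by 0.98 (0.82). The fat cell marker Fabp4 also differed between these tissues, by 2.58 (adjusted p = 0.00296), and Ucp1 measured 4.39 and 6.03 in spinal cord of WT mice 2 and 3 at 6 months, where the muscle marker means were 3.27 and 4.29. The part of fat in these differences was not tested.

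Neighbouring pathways were read from lists of genes outside the name rule. In the nervous tissues, no gene of the following lists was called between KO and WT mice at either age. They held 36 further assembly factors, 17 genes of the citric acid cycle and pyruvate entry and 20 regulators of mitochondrial biogenesis. They also held 10 carriers and uncoupling proteins, 14 glycolysis genes and a list of 3 genes. These 3 were Cyc1, a complex III subunit with a name outside the rule, and the cytochrome c genes Cycs and Cyct. Of 73 genes of the mitochondrial ribosome, Mrpl40 in cerebellum and Mrpl42 in midbrain were called, each higher by 0.33 at 3 months. There 0.548% and 0.242% of all probe sets were called in either direction. In KO liver at 3 months, 1 mitochondrial ribosome gene was higher (Mrps9, by 0.36) and 1 lower (Mrps26, by -0.30). At 6 months 6 of the 73 were lower and none higher, with Mrps27 at -0.61 and Mrpl14 at -0.39, and 2 of 36 assembly factors were lower (Uqcc1 by -0.28, a complex III factor, and Coa3 by -0.21, a complex IV factor), beside the 5.81% of all probe sets called lower. Of the biogenesis regulators, 2 were higher at 3 months, and 4 were higher and 2 lower at 6 months. Of all probe sets in liver, 4.92% were called higher and 4.53% lower at 3 months, and 5.68% higher at 6 months. The value furthest from 0 was that of Esrrg, a nuclear receptor known to act on mitochondrial genes, at -1.90 (adjusted p = 2.16e-10). In the citric acid cycle list, Suclg2 (0.25) and Mpc1 (0.21) were higher and Pdhb (-0.26) lower at 3 months, and Fh1 (fumarase, 0.43) and Idh3a (0.25) higher at 6 months. In glycolysis Ldha, which makes lactate, was higher at both ages, by 0.40 and 0.34, and at 6 months Pfkp was higher (0.43) and Aldoc (-0.69) and Pfkm (-0.33) lower. With liver fitted by itself, of the calls in these lists only Esrrg (adjusted p = 0.0147) and Polg2 (-0.53, adjusted p = 0.0451) at 6 months passed the threshold. Polg2 too was higher at 6 than at 3 months in WT liver in the fit over all tissues, by 0.58 (adjusted p = 1.61e-05). Its KO difference changed with age by -0.43 (adjusted p = 0.0275).

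The same lists in WT liver against nervous tissue give the values beside which the respiratory chain genes stand. Of all probe sets, 47.4% were higher and 35.4% lower in this comparison, with a median of 0.12. The mitochondrial ribosome had 62 genes higher and 7 lower of 73 (median 0.63) and the further assembly factors 27 higher and 8 lower of 36 (median 0.67), while the citric acid cycle had 8 higher and 8 lower of 17 (median -0.02), beside 35 higher and 31 lower of the 86 respiratory chain genes (median 0.01). Glycolysis had 12 lower and 1 higher of 14, with a median of -2.85.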

How the data were processed

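The authors hybridised RNA of 48 samples to HT MG-430 PM arrays, 1 tissue of 1 mouse per array, and deposited log2 values made by robust multi-array averaging (RMA) in R 2.14.0, per the labels and their processing notes. The deposited values were used as they are. The methods describe quantile normalization and name no separate runs per tissue, and if all arrays were normalized together, liver and nervous tissue were set to a shared distribution. The 104 control probe sets were left out and 45037 were tested. Genes were named from the platform annotation, in which 28898 probe sets had 1 symbol, 551 several and 15588 none.

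A linear model with 16 group means was fitted with limma 3.58.1 in R 4.3.3 (eBayes, residual df 32, prior df 4.97), with p-values adjusted by Benjamini-Hochberg over all probe sets. The procedure was tested on simulated data. Standard errors and intervals come from this model. The genes named include all those called in any KO, age or interaction comparison. For each tissue comparison they were drawn from the 5 called genes furthest from 0 in each direction, not all of which are given. They were also drawn from complex II and the complex IV and Atp5g isoform families. Other genes named, including the liver and spinal cord values beside marker levels, were chosen after their values were seen. The members and lists were chosen with earlier results of these data known.

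Samples of 1 mouse were checked for pairing through residuals. The median correlation between tissues of 1 mouse was 0.051 over 72 pairs and -0.022 over 144 pairs of different mice. The mouse was entered as a block in an alternative (consensus correlation 0.0303, statmod 1.5.0). Alternatives also fitted each tissue alone, left out dim probe sets, renormalized within a tissue, used a trended robust prior, averaged probe sets of a gene and left out each mouse in turn. Arrays give no read depth, and their number limits the precision. Promoter and gene names are from RefSeq (GRCm38.p6), in which all 86 genes were found by Entrez gene number and 70 promoters by symbol.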

Additional observations from a re-analysis of the deposited data

Results flagged for a closer look

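The KO difference of Cox7a1 in liver differed between the ages by a test of the difference itself. It was 1.65 at 3 months and 0.51 at 6 months, a change of -1.14 ± 0.33 (SE, adjusted p = 0.028 in limma). It was lost with liver fitted by itself (adjusted p = 0.367), without the 2 liver arrays with raised muscle markers (-0.95, adjusted p = 0.089) and in 6 of 12 fits that left out 1 mouse, over which it ran from -1.32 to -0.86.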

How the results depend on the processing

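The calls between KO and WT mice rested on few arrays and on the spread shared between tissues. Counts are of the 86 genes, with the reported count in parentheses where first compared. The share of all probe sets called under each of these settings is not given here. A count above the reported one is therefore not shown to be particular to these genes. With each tissue fitted alone, cerebellum at 3 months had 1 higher (0), cerebellum at 6 months 0 lower (1), liver at 3 months 1 higher (4), and liver at 6 months 0 higher (1) and 0 lower (1). The cerebellum age calls fell to 0 lower (4), the liver age call to 0 lower (1), the liver interaction to 0 (1), and the cerebellum interaction rose to 1 (0). Without dim probe sets, cerebellum at 3 months had 1 higher and 3 lower (0), liver at 3 months 8 higher, liver at 6 months 0 higher, the liver age comparison 2 lower (1) and the liver interaction 2 (1). With quantile normalization within a tissue, these were 1 lower in cerebellum at 3 months, 2 higher in liver at 3 months and 2 lower with age in liver. With a trended robust prior, cerebellum at 3 months had 1 higher and 4 lower, liver at 3 months 9 higher, spinal cord with age 1 lower (0), cerebellum with age 3 higher (1), liver with age 2 lower and the liver interaction 3. With the mean over the probe sets of a gene, cerebellum at 3 months had 1 higher and 1 lower, cerebellum at 6 months 0 lower, liver at 3 months 9 higher, liver at 6 months 2 lower, liver with age 1 higher (0) and 2 lower, and the liver interaction 3.

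Leaving out 1 mouse at a time gave 0 to 1 higher and 0 to 1 lower in cerebellum at 3 months, 0 to 1 lower in cerebellum at 6 months (0 without WT 1 or KO 122970), 1 to 5 higher in liver at 3 months (2 without WT 1, 2 without WT 3, 1 without KO 122972), 0 to 1 higher in liver at 6 months, 0 to 3 higher and 0 to 3 lower with age in cerebellum, 0 to 1 higher and 0 to 3 lower with age in liver, 0 to 2 in the liver interaction and 9 to 12 lower (14) in midbrain against cerebellum. Of 366 such refits of named genes, 319 kept their direction and side of the threshold and 47 lost the call. This total includes the tissue comparisons, where few calls were lost, and some differences that were not called to begin with. Among the calls in KO liver, Cox7a1 (3 months) and Ndufaf3 (6 months) were kept in all 6 fits. Uqcrb was called in 5 of 6, Cox4i2 in 4, and Atp5mpl and Cox8a in 2. With age in WT cerebellum, Atp5j2 was called in 5 of 6, Atp5l in 3, Ndufb10 in 2, and Ndufb5 and Ndufc1 in 1.

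Chosen after seeing the data, leaving out the 2 liver arrays with raised muscle markers gave 2 higher in liver at 3 months, 1 higher and 0 lower with age and 0 in the interaction, and leaving out the 3 arrays with the highest muscle marker means gave 2 higher in liver at 3 months and 2 higher at 6 months, where Cox7a1 was called (adjusted p = 0.0316). With the mouse as a replicate block, spinal cord against cerebellum had 44 higher (43). None of the 59 named differences, called or not, changed its side of the threshold. No named value changed direction, but medians of the 86 genes close to 0 did. Over all settings the median between KO and WT mice ran from -0.029 to 0.011 in spinal cord at 3 months, from -0.017 to 0.0065 in midbrain at 3 months and from -0.0094 to 0.016 in midbrain at 6 months. The cause of these changes was not tested.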
